A study of Mus musculus with 11 samples.

Results

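The sodium pump genes described here are 3 beta subunits (Atp1b1, Atp1b2 and Atp1b3) and 4 FXYD regulators (Fxyd1, Fxyd3, Fxyd5 and Fxyd6), found on the arrays by their annotated gene symbols. They have 10 of the 25697 probes and are 7 of the 16593 gene symbols. The genes were chosen with their Day 0 and Day 6 signals on these same arrays known, so their change between the days is given as a description without a test. C2C12 cells, a mouse myoblast line for which the labels name no transgene or agent, were profiled on MouseRef-8 v2.0 BeadChips, arrays of beads that carry gene-specific probes. Proliferating myoblasts in growth medium with fetal bovine serum formed Day 0, and cells kept for 6 days in differentiation medium with horse serum formed Day 6. Each day has 5 samples, which the series' design calls independent experiments. The RNA of Day 0 replicate 5 was run on 2 arrays that were averaged, so 11 arrays gave 10 samples. Each sample's label also carries a part E1 to E4, whose meaning the labels do not give.

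The sodium pump (Na,K-ATPase) moves sodium out of the cell and potassium in at the cost of ATP, and in skeletal muscle it restores the ion gradients that action potentials run down. It is built from a catalytic alpha subunit and a glycosylated beta subunit, which the alpha subunit needs to fold and to reach the plasma membrane. FXYD proteins, named after a conserved sequence motif, span the membrane once, bind the alpha-beta complex and adjust its affinity for ions or its turnover in a tissue-specific way. The alpha subunits were not analysed here.

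Fxyd6, a regulator best known from brain and inner ear, went from around the detection limit at Day 0 to a far higher signal at Day 6. Fxyd5 (dysadherin), a regulator that weakens cell-cell adhesion in epithelia and carcinoma cells, was lower at Day 6. Atp1b1, the most widely expressed beta subunit, was higher, and Atp1b3 was higher by less. The bases just upstream of the start sites of the 3 genes with the largest differences are shown to introduce them, with E-boxes, the CANNTG words bound by myogenic bHLH factors such as MyoD and myogenin, in capitals. They are RefSeq sequences of build GRCm38.p6, 250 bases each, 5′ to 3′ on the strand of the gene and ending at the base before the annotated start.
Fxyd6, chr9:45369935-45370184 (plus strand): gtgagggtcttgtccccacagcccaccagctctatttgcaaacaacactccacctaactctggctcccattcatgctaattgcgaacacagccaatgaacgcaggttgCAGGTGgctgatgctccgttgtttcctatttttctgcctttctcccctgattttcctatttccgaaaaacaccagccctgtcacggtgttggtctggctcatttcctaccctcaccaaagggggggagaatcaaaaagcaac
Fxyd5, chr7:31042332-31042581 (minus strand): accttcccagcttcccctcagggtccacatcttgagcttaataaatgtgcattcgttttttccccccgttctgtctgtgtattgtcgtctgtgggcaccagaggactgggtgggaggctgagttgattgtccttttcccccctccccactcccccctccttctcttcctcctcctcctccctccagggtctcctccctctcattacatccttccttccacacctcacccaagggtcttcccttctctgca
Atp1b1, chr1:164458356-164458605 (minus strand): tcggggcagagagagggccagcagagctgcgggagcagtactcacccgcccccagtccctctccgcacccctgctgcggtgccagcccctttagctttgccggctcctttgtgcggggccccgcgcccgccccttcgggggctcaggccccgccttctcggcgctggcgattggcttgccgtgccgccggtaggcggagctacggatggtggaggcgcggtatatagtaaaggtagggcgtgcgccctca
The Fxyd6 window holds 1 E-box, CAGGTG, whereas the Fxyd5 and Atp1b1 windows hold none. The pattern CANNTG reads alike on both strands, but a word that fits it need not, and CAGGTG reads CACCTG on the other strand. A CANNTG word lies in 66.2% of all 32851 windows of this length. The variant CAGCTG, itself a CANNTG word, lies in 13% of all windows and in none of the 3. Among the other genes of the set, the window of Atp1b3 has 1 E-box at each of its annotated starts (CACCTG and CACGTG), and the windows of Fxyd1 and Fxyd3 have none. Windows were found for 6 of the 7 genes. A word match is a description of the sequence and not a binding site, and G and C made up 50.4% of the Fxyd6 window, 55.6% of that of Fxyd5 and 70.4% of that of Atp1b1.

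The signal of a probe is its fluorescence in arbitrary units, and a detection p under 0.05 was taken to mean that it stood above the negative controls. Signals were background-corrected, quantile normalized and put on a log2 scale, and levels are compared only within a probe. Median array signals ran from 56.6 to 62.7 on Day 0 arrays and from 57.2 to 64.3 on Day 6 arrays, with 45.9 to 47.4% and 44.7 to 48.7% of probes detected. Myotube markers matched the day labels: all 5 with a probe were detected, with a summed signal between 462 and 6277 in Day 0 samples and between 26870 and 49588 in Day 6 samples. Of the 4 myoblast markers with a probe, Myod1 and Des were detected, while Myf5 and Pax7 were not. The summed signal of this list was also larger at Day 6, between 8943 and 15855, than at Day 0, between 3327 and 5764. Day 0 replicate 5 stood apart, with myotube genes such as Acta1 (skeletal alpha-actin) at 12.31 against 6.42 to 8.75 in the other Day 0 samples. Correlations between Day 0 samples were 0.937 to 0.993 with it and 0.965 to 0.993 without it. In RNA of whole cultures, fewer cells of a type and less RNA per cell cannot be told apart.

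Detection in 3 or more samples of either day was required of a probe, and 4 of the 7 genes (Atp1b1, Atp1b3, Fxyd5 and Fxyd6) with 6 of the 10 probes met this. Atp1b2, Fxyd1 and Fxyd3 did not. Nearest to that limit on either side were Fxyd6 and the third Fxyd5 probe, each detected in every sample of 1 day, and Atp1b2, detected in 2 samples of Day 6. In all 4 genes that met it, the samples of the 2 days did not overlap, with 3 higher and 1 lower at Day 6. Over all 8659 genes tested, 32.5% had days that did not overlap. By limma with Benjamini-Hochberg adjustment, 21.1% of all genes were called higher and 24.2% lower at an adjusted p under 0.05. Since the genes were chosen on this contrast, nothing is read from their count.

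**Figure D1:**
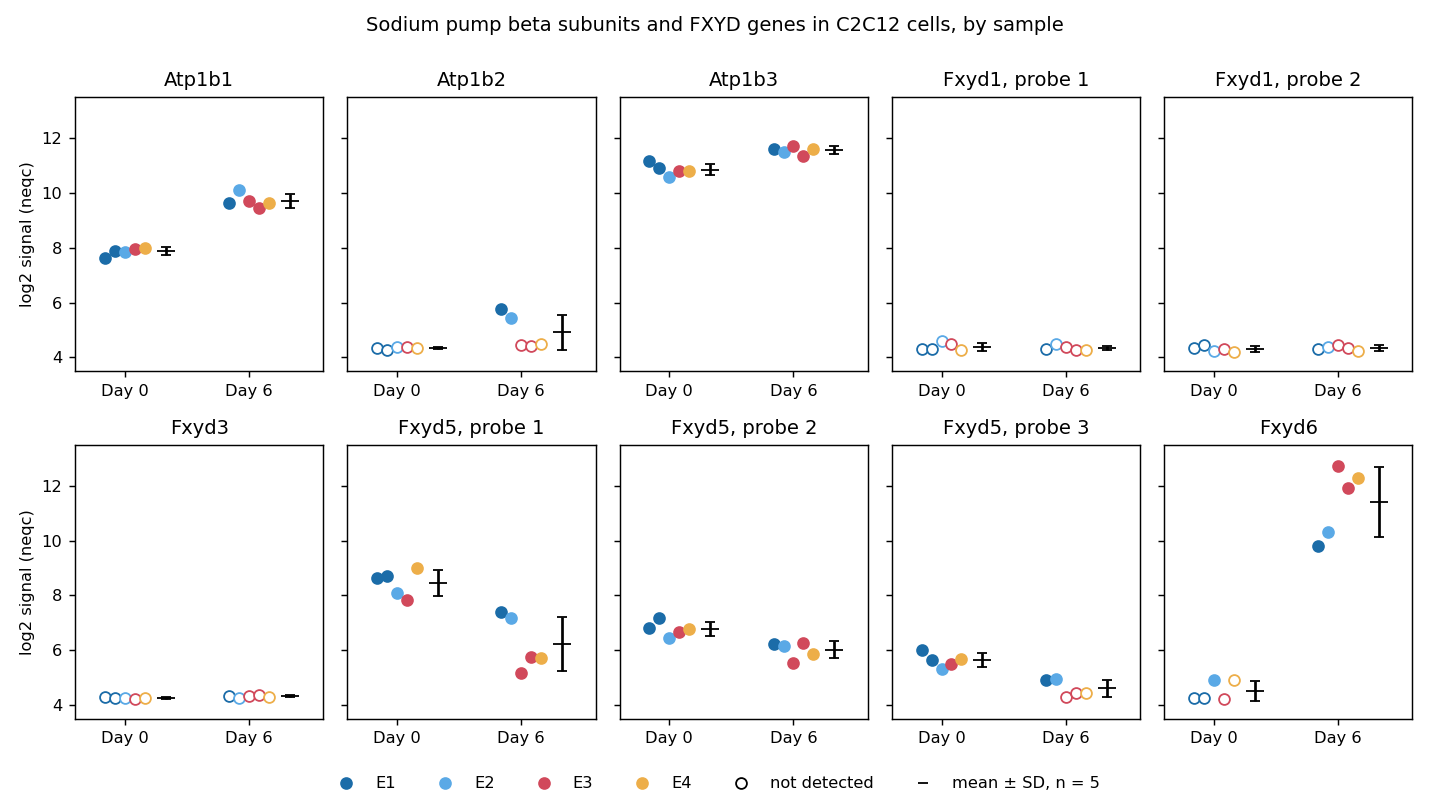
Log2 signal (neqc, background-corrected and quantile normalized) of every probe of the 7 sodium pump genes in each sample at Day 0 and Day 6, with the mean and SD of 5 samples; colours give the label part E1 to E4 and open symbols mark samples without detection. Fxyd6 is at 4.50 on average at Day 0 and at 11.40 at Day 6, all 3 Fxyd5 probes are lower at Day 6, Atp1b1 and Atp1b3 are higher, and Fxyd1 and Fxyd3 stay at the undetected level on both days.

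Among the beta subunits, Atp1b1 had signals of 225, 282, 302, 414 and 241 in Day 0 replicates 1 to 5. In Day 6 replicates 1 to 5 it had 823, 1117, 1163, 577 and 601. The days did not overlap, and the lowest Day 6 sample was replicate 4. On the log2 scale Atp1b1 averaged 7.87 ± 0.15 (SD, n = 5) at Day 0 and 9.71 ± 0.24 (SD, n = 5) at Day 6. The difference was 1.84 (SE 0.15), or 3.58-fold, with a gap of 1.45 between the nearest samples of the 2 days. Differences between days within E1, E2, E3 and E4 were 1.90, 2.25, 1.61 and 1.62, all in the same direction.

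Atp1b3, the beta subunit that pairs with alpha subunits in many tissues, had signals of 2269, 2005, 1710, 2677 and 1485 at Day 0. At Day 6 they were 3185, 2907, 4417, 2061 and 2388. Before normalization these signals overlapped, since Day 0 replicate 4 was brighter than Day 6 replicates 4 and 5. After normalization the means were 10.85 ± 0.21 and 11.56 ± 0.14 (SD, n = 5 each), a difference of 0.71 (SE 0.14) or 1.64-fold. The nearest samples of the 2 days were then 0.20 apart. When arrays were scaled to equal medians in place of quantile normalization, the days of Atp1b3 overlapped and its difference was 0.54, against a median of -0.13 over all genes under that scaling and -0.03 under quantile normalization. Within E1 to E4 the differences were 0.57, 0.93, 0.75 and 0.81.

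Atp1b2, which was first described as an adhesion molecule on glia and is also a beta subunit of fast skeletal muscle fibres in rodents, stayed near the detection limit. Its signals were 55.3, 52.1, 54.4, 54.6 and 50.8 at Day 0, where no sample was detected. At Day 6 they were 89.2, 85.3, 59.8, 53.5 and 56.2, and only replicates 1 and 2 were detected. The mean of Day 6 was 1.17-fold above the Day 0 detection floor, the lowest signal among probes detected there. Day 6 replicates 3 to 5 lay below that floor. The normalized values of the 2 days lay within 0.0088 of each other at their nearest, so Atp1b2 was measured in 2 Day 6 samples and was at background in the other 3.

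Among the FXYD regulators, Fxyd6 had the largest difference. Its Day 0 signals were 50.7, 50.3, 67.6, 44.3 and 61.2, and only replicate 3 was detected. Of the 2 arrays of Day 0 replicate 5, the first detected Fxyd6 (log2 5.41) and the repeat did not (log2 4.42). The Day 6 signals were 913, 1295, 8423, 3238 and 3890, all detected. Fxyd6 thus had a level in all Day 6 samples, of which replicates 1 and 2 were the lowest and replicate 3 the highest. On the log2 scale it averaged 4.50 ± 0.37 at Day 0 and 11.40 ± 1.27 at Day 6 (SD, n = 5 each), a difference of 6.90. As 4 of the 5 Day 0 samples were not detected, this is a difference from background, and its size rests on how the background is treated. With Day 0 values below the detection floor raised to that floor, the Day 6 mean was 97.6-fold higher. With no background correction the log2 difference was 5.68. The lowest Day 6 sample was 4.90 above the highest Day 0 sample. Within E1 to E4 the differences were 5.57, 5.39, 8.11 and 7.36, and E2 held the detected Day 0 sample.

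Fxyd5 was read by 3 probes, all higher at Day 0. The brightest, probe 1, had signals of 411, 467, 349, 379 and 448 at Day 0 and of 197, 190, 82.4, 80.5 and 77.5 at Day 6. Its Day 6 replicates 1 and 2 kept more signal than the other 3. On the log2 scale probe 1 averaged 8.45 ± 0.48 at Day 0 and 6.24 ± 0.99 at Day 6 (SD, n = 5 each). The difference was -2.21 (SE 0.39), or 4.64-fold lower. With no background correction it was -1.73, so its size rests in part on how the background is treated. Probe 2 averaged 6.77 ± 0.27 and 6.01 ± 0.30 and was 1.69-fold lower, a log2 difference of -0.76 (SE 0.18). Probe 3 averaged 5.63 ± 0.25 (SD, n = 5) at Day 0, and no fold is given for it, as most of its Day 6 samples were at background. It was detected in all Day 0 samples and, at Day 6, in replicates 1 and 2 alone, with signals of 64.5 and 70.7 there and 52.3, 54.8 and 55.2 in the rest. The days did not overlap in any of the 3 probes, which share their RNA and are not replicates, and probe 1 differed by more than probe 2. In probe 2 the highest Day 6 sample was replicate 4 (log2 6.27), so the order of the Day 6 samples in probes 1 and 3 was not seen there. Within E1 to E4 probe 1 differed by -1.29, -0.90, -2.38 and -3.29.

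Fxyd1 (phospholemman), the main FXYD regulator of heart and adult skeletal muscle, was not detected in any sample by either of its 2 probes. Signals of its first probe ran from 48.1 to 59.8 on Day 0 and from 48.6 to 57.8 on Day 6, and those of the other from 43.5 to 58.3 and from 45.1 to 59.9. Fxyd3, a regulator of epithelia such as stomach and colon, was not detected either, with 45.1 to 53.9 at Day 0 and 48.9 to 54.7 at Day 6. Fxyd1 therefore lay at background at both stages of these cultures, as far as its probes can show.

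The rest of the pump's own genes gave no signal. Of 8 other sodium pump genes, 4 had a probe: Atp1b4 (a muscle beta subunit that in placental mammals sits in the inner nuclear membrane), Fxyd2 (the kidney gamma subunit), Fxyd4 (a regulator of the collecting duct and colon) and Fxyd7 (a brain regulator). None of their probes was detected in any sample, and no such gene was tested. Fxyd6 and Fxyd2 are direct neighbours on chromosome 9 in the RefSeq annotation, and of the pair Fxyd6 alone was detected. On chromosome 7, Fxyd5, Fxyd7, Fxyd1 and Fxyd3 lie in that order with 3 other genes among them, and of these 4 Fxyd5 alone was detected.

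Fxyd6 and probe 1 of Fxyd5 varied most between the Day 6 samples. The SD at Day 6 was 1.27 for Fxyd6 and 0.99 for this probe. Of all genes tested, 0.208% and 0.635% had a larger one. Probes 2 and 3 of Fxyd5 did not share this spread, each with a Day 6 SD of 0.30. For Atp1b1 and Atp1b3 it was 0.24 and 0.14, near or below the median of 0.23 over all genes. The Day 6 log2 values of Fxyd6 were 9.82, 10.30, 12.71, 11.92 and 12.27 in replicates 1 to 5. Those of Fxyd5 probe 1 were 7.39, 7.18, 5.16, 5.75 and 5.72. Replicates 1 and 2, labelled E1 and E2, were thus low in Fxyd6 and high in Fxyd5 probes 1 and 3 and were the samples with detected Atp1b2, whereas replicates 3 to 5 carry E3 and E4. Myotube markers spread less over the same samples: Myog (myogenin) was 10.21, 10.48, 9.89, 9.96 and 9.98. Ckm (muscle creatine kinase) was 9.67, 9.68, 9.37, 9.47 and 9.18. Mymk (myomaker, needed for fusion) was 10.71, 11.09, 11.44, 11.54 and 11.55. Replicates 1 and 2 were thus lowest in Mymk but highest in Myog and Ckm. Acta1 and Tnnc2 (fast troponin C) showed neither order. The part of E1 to E4, or of how far each culture had differentiated, in the spread of Fxyd6 and Fxyd5 was not tested.

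**Figure D2:**
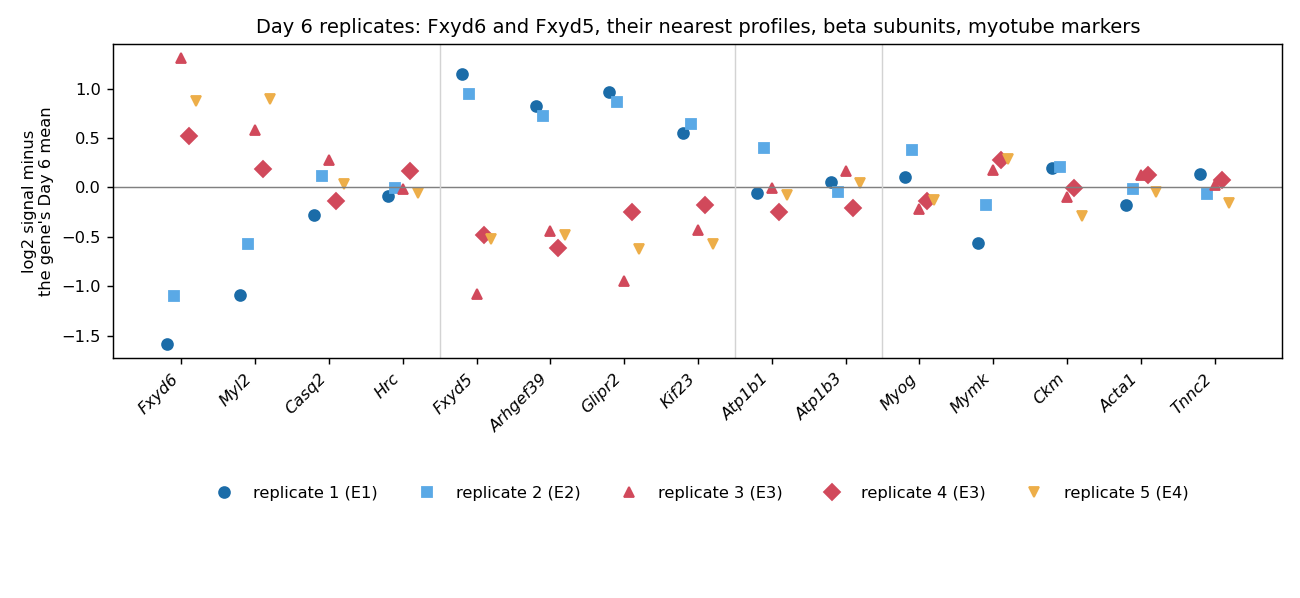
Log2 signal at Day 6 minus the gene's Day 6 mean, for each of the 5 Day 6 replicates with its label part E1 to E4, in 4 sodium pump genes, in the genes with the nearest profiles and in myotube markers. Replicates 1 and 2 lie below the others in Fxyd6 and above them in Fxyd5 probe 1, the one plotted, while Atp1b1, Atp1b3 and the myotube markers spread over a narrower range.

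Day 0 replicate 5, which carried myotube transcripts, did not stand out in the pump genes to the same degree. Placed between the mean of the other Day 0 samples (0%) and the Day 6 mean (100% by definition), it lay at 9.37% for Atp1b1, -9.29% for Atp1b3, -33% for Fxyd5 and 7.35% for Fxyd6. Acta1 lay at 72%, Myog at 70.5%, Mymk at 66%, Tnnc2 (fast troponin C) at 48.5% and Ckm at 24%. The median was 14.1% over 810 genes called higher by at least 2-fold and 9.06% over 821 called lower. For Fxyd5 this sample lay above the 7.83 to 8.72 of the other Day 0 samples, on the side away from Day 6. For Atp1b1 it lay above the others too (8.01 against 7.63 to 7.97), and marginally so for Fxyd6, in both on the side towards Day 6. Without this sample the differences between days were 1.88 for Atp1b1, 0.70 for Atp1b3, -2.08 for Fxyd5 and 7.00 for Fxyd6, close to those with it.

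**Figure D3:**
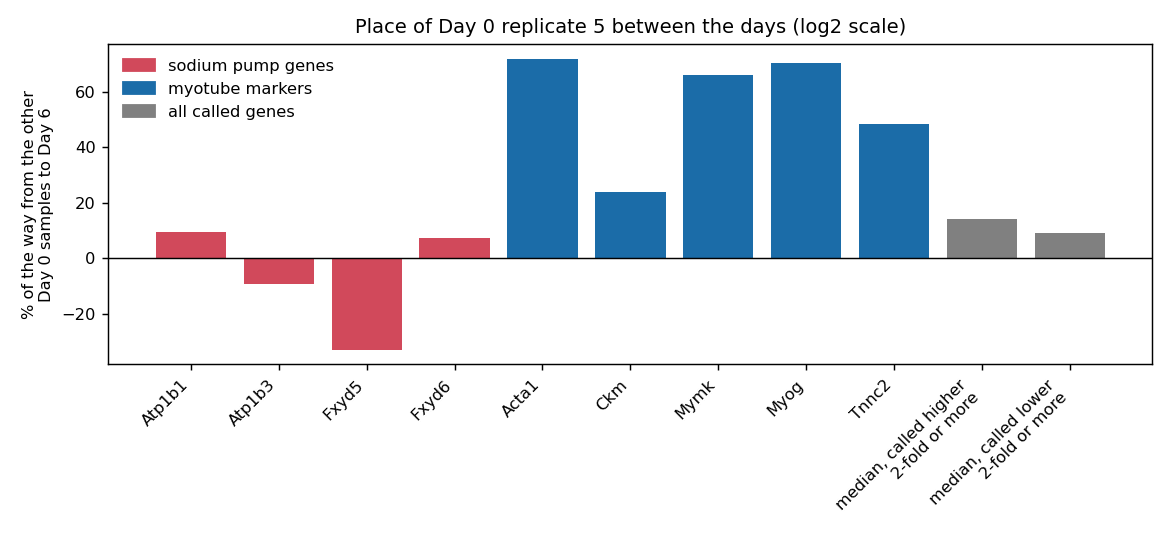
Position of Day 0 replicate 5 between the mean of the other 4 Day 0 samples (0%) and the Day 6 mean, in percent, for sodium pump genes and myotube markers, as bars, with the medians of the genes called at least 2-fold higher and lower. The pump genes lie between -33% and 9.37%, and the myotube markers between 24% and 72%.

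The genes whose profile was nearest to Fxyd6 and Fxyd5 were found among all 8659 genes by the root mean square difference of the log2 values over the 10 samples, each gene centred on its mean. Nearest to Fxyd6 was Myl2, the slow and cardiac regulatory myosin light chain, with a difference of 0.358. The Day 6 values of Myl2 were 10.62, 11.13, 12.29, 11.89 and 12.60, with replicates 1 and 2 lowest. The next were Casq2 (cardiac calsequestrin, 0.978) and Hrc (a calcium-binding protein of the sarcoplasmic reticulum, 1.03), which were farther away. Their Day 6 values did not show this order: Casq2 was 11.12, 11.52, 11.68, 11.27 and 11.44. Hrc was 11.16, 11.25, 11.23, 11.42 and 11.20. Nearest to Fxyd5 were Arhgef39 (0.392), Glipr2 (0.431) and Kif23 (a kinesin of the cytokinetic midzone, 0.440). At Day 6 Arhgef39 was 6.14, 6.04, 4.87, 4.70 and 4.83, with replicates 1 and 2 highest as for Fxyd5 probe 1. Kif23 was 6.52, 6.61, 5.54, 5.79 and 5.39, and Glipr2 was 9.86, 9.76, 7.95, 8.64 and 8.27, with the same samples on top. These are the nearest of many genes and share the 10 samples, so their likeness is a description. The Day 6 values were among those used to pick them, so a shared order of Day 6 samples follows in part from the choice.

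Genes that work beside the pump were fitted with all other genes. Their adjusted p-values, from limma, set the difference between days against the spread between these samples of 1 cell line. The lists of these genes, like the set itself, were drawn up with earlier results of these data known. The counts of the lists are therefore no independent evidence of a direction. Of 15 listed transporters and exchangers that use the sodium gradient, 13 had a probe and 8 were tested, of which 5 rose, 1 fell and 2 were not called, beside 21.1% higher and 24.2% lower over all genes. The median log2 difference of the 8 was 0.79, against -0.03 over all genes. Slc12a2, the sodium-potassium-chloride cotransporter NKCC, rose from 9.58 ± 0.41 to 11.45 ± 0.27 (SD, n = 5 each), by 1.86 (SE 0.20, limma adjusted p = 7e-06), and its second kept probe by 1.68. Slc8b1, the mitochondrial sodium-calcium exchanger, rose by 1.22 (SE 0.26, limma adjusted p = 0.00183). Slc6a6, the taurine transporter, rose by 1.08 (SE 0.28, limma adjusted p = 0.0057), and Slc20a2, a sodium-phosphate cotransporter, by 0.97 (SE 0.23, limma adjusted p = 0.00335). The days did not overlap in Slc12a2, Slc8b1 and Slc20a2, and they did in Slc6a6. Slc8a1, the plasma membrane sodium-calcium exchanger, rose by 0.62 (SE 0.16, limma adjusted p = 0.00577), but its call was lost with equal array medians (adjusted p = 0.0621). Slc1a5, a neutral amino acid transporter, was not detected on any Day 6 array and was at least 1.19-fold lower (limma adjusted p = 0.034). This call was lost in 12 of 20 alternatives, where the adjusted p ranged from 0.0127 to 0.0754.

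A further list holds proteins that anchor the pump or set its activity, together with kinases of the cation-chloride cotransporters (Wnk1, Stk39 and Oxsr1). Of its 16 genes, 15 had a probe and all 15 were tested. Of these 5 rose, 5 fell and 5 were not called, again beside 21.1% higher and 24.2% lower over all genes, and the median was -0.11. Ank1, a muscle and erythroid ankyrin that links membrane proteins to spectrin, rose from 6.41 ± 0.72 to 9.73 ± 0.32 (SD, n = 5 each), by 3.32 (SE 0.30, limma adjusted p = 1.11e-06). Its other 2 kept probes rose by 3.44 and 2.11. Cav3, the caveolin of muscle, was not detected on any Day 0 array and was detected on all Day 6 arrays, at least 3.84-fold higher (limma adjusted p = 2.31e-05). Ank3 rose by 0.72 (limma adjusted p = 0.00971), though its second kept probe differed by 0.32 and was not called (adjusted p = 0.0966 over kept probes). Sptbn1, a beta spectrin, rose by 0.50 (limma adjusted p = 0.0167) and lost its call with equal array medians (adjusted p = 0.382). Wnk1, a kinase upstream of cation-chloride cotransporters, rose by 0.55 (limma adjusted p = 0.0485), and its call was lost in 14 of 21 alternatives. Another kept probe of Wnk1 differed by 0.99 (adjusted p = 0.00471 over kept probes).

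Among the kinases, 4 fell at Day 6. Stk39 (SPAK), which phosphorylates Slc12a2, fell from 7.24 ± 0.25 to 5.31 ± 0.23 (SD, n = 5 each), a log2 difference of -1.92 (SE 0.16, limma adjusted p = 7.09e-07). Its list partner Oxsr1, a related kinase with the same substrate, differed by -0.43 and was not called (limma adjusted p = 0.104). Src, a tyrosine kinase reported to bind the pump, differed by -1.86 (SE 0.24, limma adjusted p = 3.67e-05). Sgk1, a kinase that raises pump and channel abundance in kidney epithelium, differed by -1.54 (SE 0.33, limma adjusted p = 0.00178). Prkca, a protein kinase C that phosphorylates Fxyd1 in heart, differed by -0.65 (SE 0.16, limma adjusted p = 0.00434). The days did not overlap in any of these 4 called kinases. Nedd4l, a ubiquitin ligase that is a target of Sgk1, differed by -0.33 (limma adjusted p = 0.0385), and its call was lost in 11 of 21 alternatives. Prkaca, the catalytic subunit of protein kinase A, differed by 0.55 without a call (limma adjusted p = 0.0787), but its second kept probe was called (0.88, adjusted p = 0.0018 over kept probes).

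**Figure D4:**
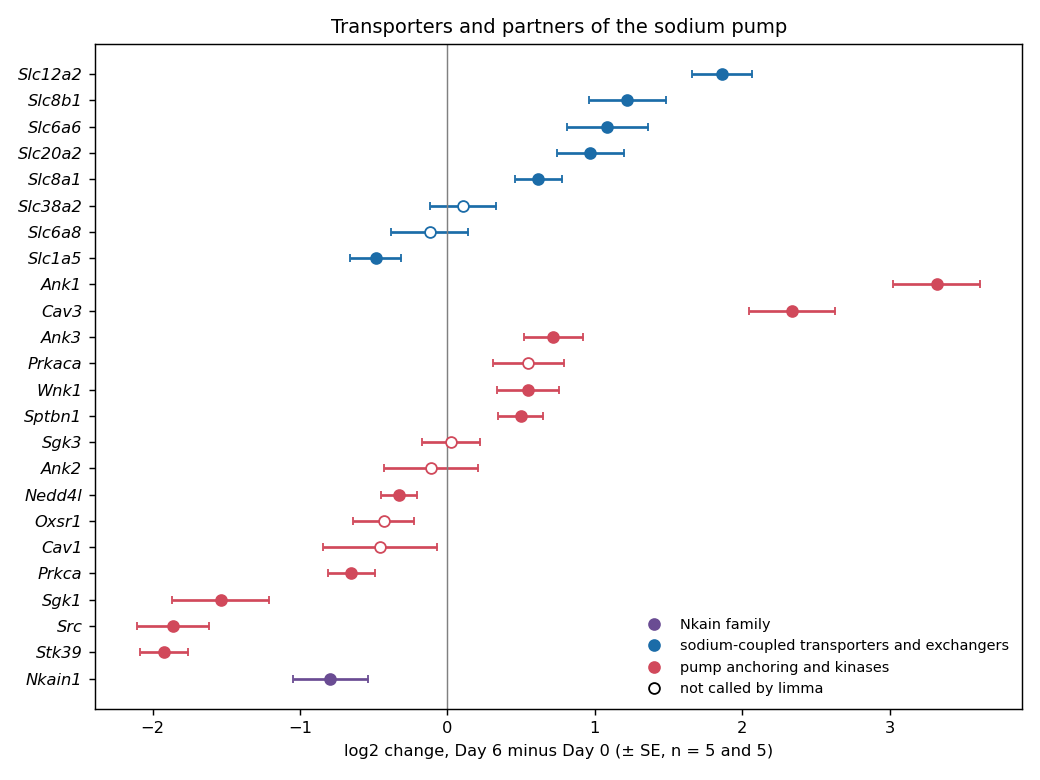
Log2 difference Day 6 minus Day 0 with its SE for each tested gene outside the set (transporters and exchangers, anchoring proteins and kinases, and Nkain1), coloured by list, with filled points called by limma at an adjusted p under 0.05. Transporters lie mostly above 0, with Slc12a2 at 1.86, and the second list runs from Ank1 at 3.32 to Stk39 at -1.92.

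Of the Nkain family, small membrane proteins that bind the beta subunit Atp1b1 in the mouse brain, 4 genes had a probe and only Nkain1 was tested. It fell from 6.33 ± 0.64 to 5.54 ± 0.18 (SD, n = 5 each), a log2 difference of -0.79 (SE 0.26, limma adjusted p = 0.0216). The call was lost without a detection filter (adjusted p = 0.0675) and without Day 0 replicate 1, Day 0 replicate 2 or Day 6 replicate 1 (adjusted p = 0.0599, 0.0559 and 0.0509).

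Markers of cell types known for FXYD and beta subunits were read on the same arrays. None of the 6 neuron and glia markers with a probe was detected, nor any of the 4 adipocyte markers. Of 6 epithelial markers Cdh1 and Krt19 were detected, and their list's summed signal ranged from 351 to 439 on Day 0 and from 347 to 425 on Day 6. Of 6 osteoblast markers Bglap, Bglap2 and Alpl were detected, with a summed signal between 517 and 796 on Day 0 and between 1072 and 1684 on Day 6, while Ibsp, Sp7 and Dmp1 were not detected. On the log2 scale Bglap was 4.64 to 6.53 and then 7.80 to 8.27, and Bglap2 was 5.04 to 7.63 and then 9.05 to 9.63. Alpl did not share this, with 4.80 to 5.22 on Day 0 and 4.78 to 5.00 on Day 6. Of 5 endothelial markers Kdr and Tek were detected, with a summed signal of the list from 310 to 373 on Day 0 and from 335 to 361 on Day 6. Of 4 immune markers Cd14 was detected, at a log2 signal of 6.34 to 7.36 on Day 0 and 5.57 to 6.34 on Day 6, and the list's summed signal ran from 310 to 498 and from 293 to 338. The part of the differing Bglap, Bglap2 and Cd14 signals in the pump genes' differences was not tested.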

How the data were processed

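RNA of C2C12 cells was read on MouseRef-8 v2.0 BeadChips in 5 samples each of Day 0 and Day 6. The authors extracted average probe intensities and detection p-values with GenomeStudio 2011.1, as the submitters' processing notes name it, and the deposited signal intensity is neither background-subtracted nor normalized between arrays. The deposited Z-score of each probe, a score within its array, was recomputed from the signals to within 0.005. The genome build behind the probe annotation is not given in the sources used here.

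In R 4.3.3 with limma 3.58.1, neqc (offset 16, negative controls inferred from the detection p) corrected and quantile normalized the 11 arrays. The 2 arrays of Day 0 replicate 5 were then averaged. Probes detected (p under 0.05) in at least 3 samples of 1 day were kept, 12753 of 25697, and the kept probe of highest mean log2 signal stood for its gene, giving 8659 genes. Of all probes, 23978 carry 1 gene symbol and 1719 none. Differences were fitted by lmFit and eBayes without covariates, with Benjamini-Hochberg adjustment over all genes. A fold against a day with no detected array is a lower bound, taken against the lowest signal among detected probes of each array. The number of arrays limits the precision. Promoter windows were searched and plots drawn with Python 3.11.15 and matplotlib 3.10.9.

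The 7 genes and the lists were chosen with earlier results of these data known. By rule, the text names each of the 7 genes, the pump genes with a probe, every called gene of the other lists, and the 3 nearest profiles. Oxsr1 and Prkaca fall outside it and were picked with their values known. The alternatives were other background corrections and normalizations, the Z-scores, other detection filters, either array of Day 0 replicate 5, blocks for replicate number and for E1 to E4, another probe choice and each sample left out. The fit was run on simulated data with independent normal noise and few changed genes. This does not show how well it does on these arrays.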

Additional observations from a re-analysis of the deposited data

Results flagged for a closer look

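In 46 groups of 5 samples, 1 sample stood apart by Dixon's test at its critical value of 0.71, and chance alone gives about 1 in 20 groups. It was Day 6 replicate 5 for the transporter Slc1a5, at a log2 signal of 4.29 against 4.47 to 4.53 in the other Day 6 samples, a gap of 0.738 of the whole range. Slc1a5 was not detected on any Day 6 array. No sample did so in the 6 kept probes of the sodium pump genes.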

How the results depend on the processing

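The direction of Atp1b1, Atp1b3, Fxyd5 and Fxyd6 was the same under each alternative in which the gene was tested. The log2 differences ranged from 1.65 to 1.90, 0.54 to 0.79, -2.50 to -1.73 and 5.68 to 7.30. Fxyd6 was 5.68 and Fxyd5 was -1.73 with no background correction. Leaving out each sample in turn gave 1.74 to 1.90, 0.64 to 0.79, -2.50 to -1.94 and 6.57 to 7.30. Fxyd6 was not tested when detection was required in all 10 samples. With equal array medians, 1155 genes were called higher and 2068 lower, against 1825 and 2098 with quantile normalization. Anchoring proteins and kinases called higher numbered 3 in place of 5 with equal array medians and with detection in all 10 samples. Nkain genes called lower numbered 0 in place of 1 with no detection filter, and 0 to 1 with a sample left out. Transporters called lower numbered 0 in place of 1 with the replicate block, the E1 to E4 block, the Z-scores, equal array medians, detection in all 10 samples and no detection filter, and 0 to 1 with a sample left out. The causes were not tested.

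No pairing by replicate number was seen in the values. The number does not always go with the label part, as replicate 2 carries E1 at Day 0 and E2 at Day 6. Deviations from the day means of samples with the same number correlated at -0.235 to 0.185. None of the 5 pairs matched best with its own number. With only 5 pairs, this cannot show whether the cultures were paired by design. With the replicate block, 1710 genes were called higher and 1992 lower. The differences of the 4 genes stayed at 1.84, 0.71, -2.21 and 6.90, as they must when each number has a sample of each day. The calls of Slc1a5 (adjusted p = 0.062), Nedd4l (0.0905) and Wnk1 (0.0771) by limma were lost with the replicate block. With E1 to E4 as the block, 1832 genes were called higher and 2139 lower, and these calls were lost too. Signals near background limit what can be read of Atp1b2, Fxyd1 and Fxyd3 on both days and of Fxyd6 at Day 0.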
